A study of Acidomyces sp. 'richmondensis' with 12 samples.

Results

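The deletion of ArAceA was compared with the wild type in the absence of added copper, in mycelia of the acid-loving fungus Acidomyces richmondensis. The comparison uses 6 of the 12 RNA-seq libraries of the study, chosen by their genotype and copper labels: 3 wild-type libraries (WT) and 3 libraries of the strain lacking ArAceA (∆ArAceA). Both strains are labelled as MEY-1, were grown in liquid MMC medium for 4 days, washed, moved to fresh MMC holding 0 mM CuCl2, and harvested after 6 h. The sample labels give a growth temperature of 28 °C and the series text gives 30 °C. The other 6 libraries come from the same strains moved to MMC with 15 mM CuCl2 for 6 h, and they enter below as a second, separate set of libraries. The labels do not say how many independent deletion clones were used, so a difference between the strains cannot be told apart from a difference between 2 lines that arose in another way. Cultures were sampled in triplicate per the series text, and no batch is labelled.

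By name ArAceA is related to AceA, a copper-fist transcription factor of Aspergillus fumigatus. Factors of the AceA branch of this family bind copper through clusters of cysteine. They then activate genes that lower the free copper of the cell, such as copper-exporting P-type ATPases and metallothioneins, small cysteine-rich proteins that hold the metal. In A. fumigatus and in baker's yeast this branch is known for the response to excess copper. The comparison without added copper asks how the transcriptomes of the strains differed where no copper challenge was given. The files list 10043 genes by locus identifier only and do not pair these with names or products, so no gene below is given a function. The level of ArAceA itself was not analysed here, and the genotypes rest on the labels.

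Levels are in FPKM, the fragments mapped to a gene divided by the length of its transcript and by the size of the library. The FPKM of a library summed to between 893185 and 926713 in WT and between 886972 and 890265 in ∆ArAceA, without overlap. The number of reads behind them is unknown. With log2(FPKM + 1) taken over the genes tested, WT libraries correlated with each other at r = 0.993 to 0.994, ∆ArAceA libraries at 0.995 to 0.996, and a WT with a ∆ArAceA library at 0.963 to 0.969. The points are genes, which are no replicates, and the coefficients only describe how alike the libraries were. On the same scale the median gene had an SD of 0.10 between WT libraries and 0.07 between ∆ArAceA libraries.

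The mycelium of ∆ArAceA spread its transcripts over more genes than that of WT. It took the top-ranked 185, 181 and 177 genes to hold 50% of the summed FPKM of the WT libraries, and 239, 238 and 239 genes in the ∆ArAceA libraries. The 100 most abundant genes of each library held 36.4, 37.6 and 37.4% of its FPKM in WT and 32.3, 32.1 and 32.1% in ∆ArAceA. Every ∆ArAceA library thus lay below every WT library in the share of its most abundant transcripts. At the other end of the range, 568, 598 and 564 genes were listed at 0 in WT and 475, 457 and 481 in ∆ArAceA. Among only the genes that reached 1 FPKM in 3 or more of the 12 libraries, the mean difference (∆ArAceA minus WT) was -24.7. Read depth was unknown, so a gene listed at 0 may have been present at a level too low to be read. The median FPKM over all genes was 14.1, 14.8 and 14.2 in the WT libraries, against 16.7, 16.7 and 16.8 in those of ∆ArAceA. The groups did not overlap in any of these 4 measures. The mean differences (∆ArAceA minus WT) were 57.7 genes holding 50% of FPKM, -4.93 percentage points for the top 100 genes, -106 genes listed at 0, and 2.37 FPKM for the median gene. For each the exact two-sided permutation test gave p = 0.1, the smallest that 3 against 3 libraries allow, so none could pass 0.05.

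**Figure D1:**
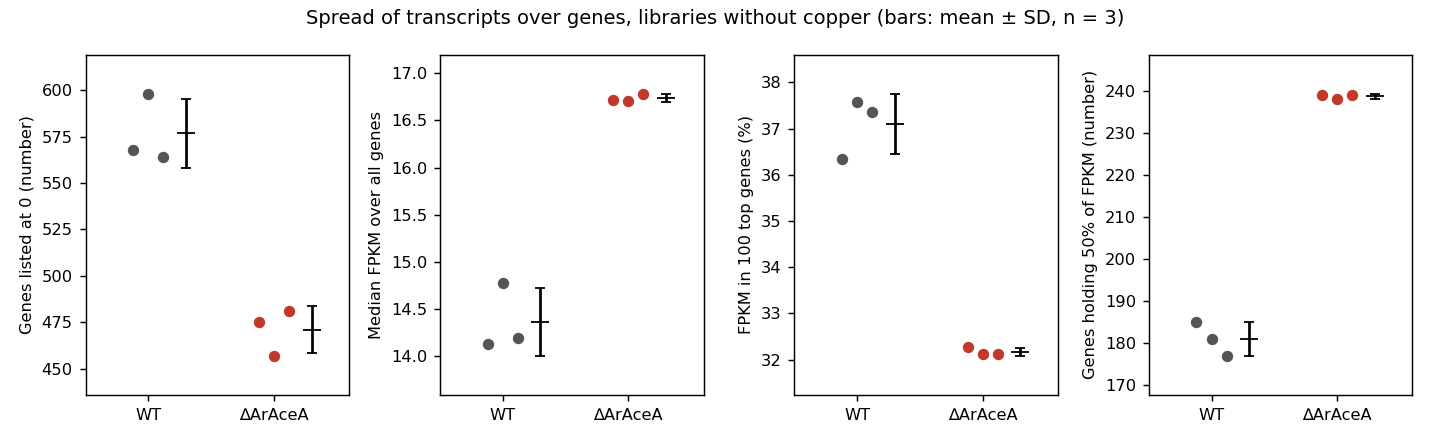
Points are single libraries without copper (WT grey, ∆ArAceA red), and the bars beside them give the mean ± SD of 3. In each panel, from genes listed at 0 on the left to genes holding 50% of the summed FPKM on the right, the ∆ArAceA libraries lie wholly to 1 side of the WT libraries. The vertical axes do not start at 0.

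Most genes tested differed between the strains, and the larger changes were mostly upwards in ∆ArAceA. Of 8741 genes tested, 5133 (58.7%) had an adjusted p under 0.05 by limma, 3564 of them higher in ∆ArAceA (40.8%) and 1569 lower (17.9%). Without any model, all 3 ∆ArAceA values lay above all 3 WT values in 3740 genes (42.8%) and below them in 1687 (19.3%). The fitted log2 change of the median gene was 0.12. Once the libraries were scaled to a common median of ratios, which puts the median gene at -0.01, 2692 genes were called higher and 2763 lower. The excess of higher over lower calls as such therefore depended on the scaling.

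Among large changes higher genes outnumbered lower ones on either scale. In the FPKM as deposited, genes changed at least 1.5-fold numbered 1677 higher and 211 lower. Those changed at least 2-fold numbered 698 higher (7.99%) and 67 lower (0.767%), those at least 4-fold 105 and 7, and those at least 8-fold 29 and 1. After median-of-ratios scaling the counts were 1298 and 410 at 1.5-fold, 543 and 85 at 2-fold, 89 and 8 at 4-fold, and 26 and 1 at 8-fold. A pseudocount of 0.1 in place of 1, which weighs low genes more, gave 209 and 17 at 4-fold and 67 and 7 at 8-fold. With a pseudocount of 1 the share of higher genes grew with the size of the change on both scales, from 69.4% of all calls to 91.2% of those of at least 2-fold as deposited, and from 49.3% to 86.5% after scaling. When the test itself asked for a change beyond 2-fold, 318 genes passed as higher (3.64%) and 21 as lower (0.24%). The fitted changes ran through the 2-fold limit without a break, with called genes nearest to it at 1.0004 and 0.999 on the higher side and at -1.003 and -0.996 on the lower side, in log2 units.

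On the fitted log2(FPKM + 1) scale the largest rise was in M433DRAFT_63521, a gene of unknown product. Ratios of means give another order, since they weigh genes near 0 more: a gene whose WT libraries read 0, 0.22 and 0 FPKM, and whose ∆ArAceA libraries read 31.6, 34.3 and 45.9 FPKM, came after the 2 genes named here on the fitted scale. M433DRAFT_63521 stood at 3.78, 3.65 and 4.39 FPKM in WT and at 212, 225 and 206 FPKM in ∆ArAceA. The lowest ∆ArAceA library lay far above the highest WT library, and the means differed 54.4-fold. The fitted log2 change was 5.45 (95% interval 5.23 to 5.67, limma adjusted p = 1.85e-13). With copper the same gene stood at 8.62, 7.88 and 8.07 FPKM (WT) and at 9.21, 6.75 and 6.55 FPKM (∆ArAceA). The values of the genotypes then overlapped, with a log2 difference of -0.13 (95% interval -0.34 to 0.09, limma adjusted p = 0.332).

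M433DRAFT_60963, also of unknown product, had the next largest rise. Its level was 10.3, 7.75 and 10.5 FPKM in WT against 456, 471 and 399 FPKM in ∆ArAceA, a 46.5-fold difference of means. The fitted log2 change was 5.40 (SE 0.11, limma adjusted p = 2.4e-12). With copper the difference was smaller but the groups still did not overlap, since WT was at 16.6, 15.8 and 14.0 FPKM while ∆ArAceA was at 78.8, 64.3 and 72.5 FPKM. That difference was 4.65-fold between the means, with a log2 change of 2.14 (SE 0.11, limma adjusted p = 1.83e-08).

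On the fitted log2(FPKM + 1) scale the falls were smaller than the rises. That order depended on the pseudocount. With 0.1 in place of 1, the log2 change was -6.68 for M433DRAFT_131828, against 5.73 for M433DRAFT_63521 and 5.53 for M433DRAFT_60963. M433DRAFT_131828 stood at 10.3, 12.6 and 8.15 FPKM in the WT libraries, whereas each ∆ArAceA library listed it at 0, so no fold is given. Of all genes listed, it alone combined at least 1 FPKM in every WT library without copper with 0 in every ∆ArAceA one. Its limma adjusted p was 5.09e-07. With copper its order was the reverse: 0.57, 1.01 and 0 FPKM in WT against 7.40, 16.5 and 11.5 FPKM in ∆ArAceA, again without overlap (limma adjusted p = 3.86e-06). Within each genotype copper moved the gene in opposite directions, by -2.93 (WT) and 3.61 (∆ArAceA) on the fitted log2 scale.

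M433DRAFT_68484 read 24.5, 21.8 and 26.0 FPKM in the WT libraries but 4.80, 4.63 and 2.22 FPKM in those of ∆ArAceA. All 3 ∆ArAceA values lay below all 3 WT values, the WT mean was 6.20 times the ∆ArAceA mean (7.49 and 6.65 times in 2 genes ranked lower on the fitted scale), and the limma adjusted p was 2.56e-07. With copper it stood at 13.5, 18.7 and 16.1 FPKM in WT while each ∆ArAceA library listed it at 0. Its lower level in ∆ArAceA was therefore present in both media.

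**Figure D2:**
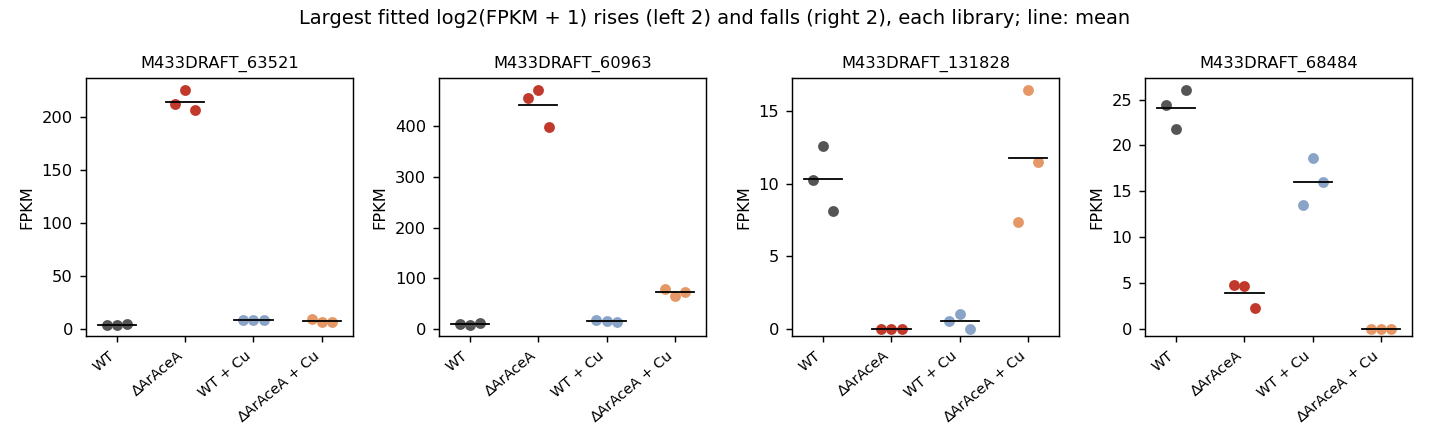
Each point is the FPKM of 1 library and each line the mean of 3, for the 2 largest rises (left) and the 2 largest falls (right) in ∆ArAceA without copper by the fitted log2(FPKM + 1) change; ratios of means rank other genes higher. M433DRAFT_63521 is high in ∆ArAceA without copper alone, M433DRAFT_131828 is high in WT without copper and in ∆ArAceA with copper, and M433DRAFT_68484 is lower in ∆ArAceA in both media.

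The 12 largest rises by the same rule spanned fitted log2 changes of 3.59 to 5.45. Their WT means lay between 0 and 24.6 FPKM and their ∆ArAceA means between 13.0 and 442 FPKM. All 12 also passed the test against a minimum of 2-fold. The 12 largest falls spanned -1.68 to -3.49 and included 2 abundant transcripts. These stood at 2826 ± 298 and 2298 ± 761 FPKM in WT and fell to 819.7 ± 32.7 and 556 ± 94.3 FPKM in ∆ArAceA (mean ± SD, n = 3 here and below). Of these falls 9 passed the test against 2-fold. For the 24 genes the limma adjusted p was at most 0.0011.

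Genes that were near silent in 1 strain and present in the other were mostly those appearing in ∆ArAceA. Of the 10043 genes listed, 199 lay under 1 FPKM in each WT library and reached 1 FPKM in each ∆ArAceA library. Their median in ∆ArAceA was 1.74 FPKM, close to the cut. The opposite pattern held for 16 genes. With at least 5 FPKM asked of the higher strain, 11 genes appeared and 1 was lost. Of the genes listed at 0 in all 3 WT libraries, 9 had at least 1 FPKM in all 3 ∆ArAceA libraries, up to a mean of 13.0 FPKM. Depth limits these counts, since a gene listed at 0 may have been present at a level too low to be read. All were taken in the FPKM as deposited, where the median gene tested was higher in ∆ArAceA by 0.12 in log2 units. Other scalings were not tried on them.

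The balance of higher and lower genes shifted steadily with the level of the gene. Genes were put into 4 classes by their mean FPKM over the 6 libraries. Among 1790 genes under 5 FPKM, 820 were called higher in ∆ArAceA and 99 lower (45.8% and 5.53%). Among 2485 genes of 5 to 20 FPKM the shares were 42.3% and 14.2%, among 3106 genes of 20 to 100 FPKM 38.96% and 22.8%, and among 1360 genes of at least 100 FPKM 35.4% and 30.1%. The median log2 change fell over the same classes, from 0.32 through 0.15 and 0.06 to 0.01. Scaling moved the level of these medians, not their order: after median-of-ratios scaling they were 0.22, 0.01, -0.08 and -0.14. On that scale lower calls outnumbered higher calls in both upper classes, at 1265 against 864 and 677 against 302. The error also differed by class, with a median SE of 0.14 under 5 FPKM and 0.05 at 100 FPKM or more, so a small change was more readily called in an abundant gene.

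**Figure D3:**
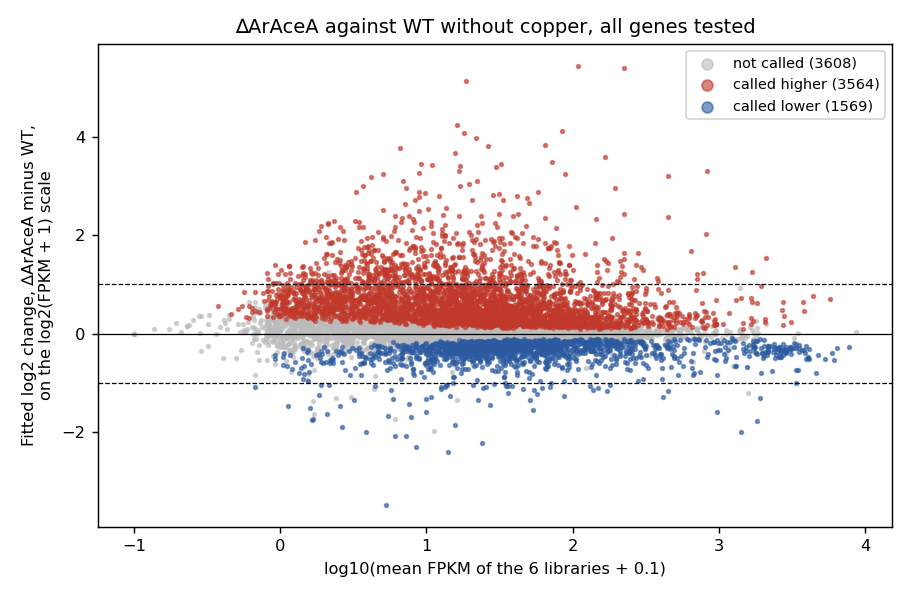
Each point is 1 of the 8741 genes tested, with its mean FPKM over the 6 libraries (log10 axis) against the fitted log2 change; dashed lines mark 2-fold. Large rises (red) spread over low and middle levels, while the most abundant genes on the right lie mostly just below 0 (blue).

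**Figure D4:**
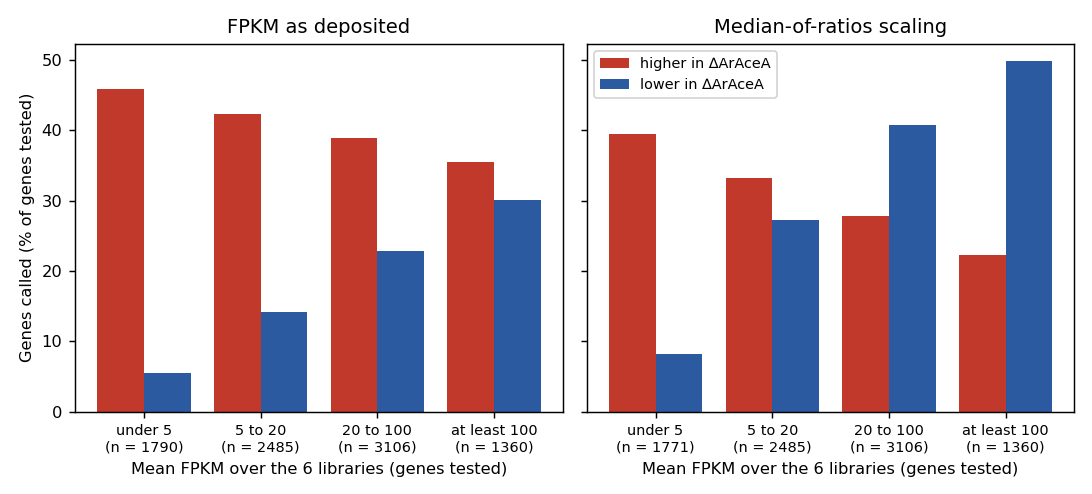
Bars give the percentage of the tested genes of each level class that was called higher (red) or lower (blue) in ∆ArAceA, in the FPKM as deposited (left) and after median-of-ratios scaling (right). On both scales the share called higher falls and the share called lower rises from the lowest to the highest class.

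The most abundant transcripts of the mycelium were lower in ∆ArAceA as a group. Of the 100 genes with the highest mean over the 6 libraries, 80 were called lower, 14 higher and 6 neither, where 17.9% of all genes were lower and 40.8% higher. Their median log2 change was -0.32. Only 2 were at least 2-fold lower and 1 at least 2-fold higher, so the falls were many and small. After median-of-ratios scaling the counts were 81 lower and 11 higher, with a median of -0.47. The copper libraries do not enter the fitted change without copper, only the filter and the shared estimate of spread. Since the libraries compared also chose these genes, the same was asked of the 100 most abundant genes of the copper libraries. The copper libraries are of the same strains, and how many genes the 2 lists share is not given. The second list is therefore no independent check. Of the 100 genes chosen in the copper libraries, 85 were called lower and 10 higher, beside the same shares of all genes. They held 36.5 ± 0.756% of the FPKM in WT and 31.0 ± 0.201% in ∆ArAceA, and all other genes together held 63.5% and 69.0%, a log2 ratio of 0.12. FPKM are shares of a library, so a lower share of the abundant transcripts and a higher share of the remaining ones cannot be told apart, and neither can fewer molecules per cell from a changed mix of cells in the mycelium.

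The lists of the 100 most abundant genes in each strain shared 84 genes. Summed over the called genes, the lower ones fell by 111811 FPKM between the group means and the higher ones gained 93653 FPKM. The 10 largest losses made up 17.4% of the loss and the 10 largest gains 17.2% of the gain. The first 100 made up 71.3% of the loss, which 1569 genes share, and 45.9% of the gain, which 3564 genes share. Losses among the first 10 ranged from 1.32-fold to 4.14-fold, in genes of 2298 to 7328 FPKM in WT. The single largest loss took a transcript from 5465, 6061 and 6159 FPKM in WT to 3244, 3372 and 3580 FPKM in ∆ArAceA (limma adjusted p = 1.31e-08). Gains among the first 10 ranged from 1.38-fold to 10.0-fold. The 10.0-fold gain was in a transcript whose WT libraries gave 151, 142 and 156 FPKM and whose ∆ArAceA libraries gave 1423, 1536 and 1543 FPKM.

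Genes raised by at least 2-fold without ArAceA, 698 in number, took a small part of the transcripts. By the choice of genes they were higher in ∆ArAceA, so the values without copper are a description. Their summed FPKM made up 1.67, 1.54 and 1.64% of the WT libraries and 4.89, 5.11 and 5.05% of the ∆ArAceA libraries. The lower and upper quartiles of their levels were 1.69 and 13.7 FPKM for WT, and 6.76 and 45.9 FPKM for ∆ArAceA. In the copper libraries, whose levels did not choose the genes, they made up 1.89, 1.90 and 1.75% in WT and 3.18, 2.997 and 3.08% in ∆ArAceA. The genotypes again did not overlap, at a smaller distance. The 67 genes at least 2-fold lower made up 1.95 ± 0.125% in WT and 0.769 ± 0.013% in ∆ArAceA, and 2.06 ± 0.041% and 1.09 ± 0.017% with copper.

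The larger rises of ∆ArAceA in plain medium were mostly seen with copper too, by a smaller amount. Of the 698 genes that rose 2-fold or more, 473 (67.8%) were called higher again with copper. Among all 3564 genes called higher in plain medium 1749 (49.1%) were, and 220 (6.17%) were called lower with copper. The fitted differences with and without copper come from separate libraries. The spread of each gene was estimated from all 4 groups together, so the calls of the comparisons are not independent. With copper 3092 genes were called higher in ∆ArAceA (35.4%) and 994 lower (11.4%), with 238 higher by at least 2-fold (2.72%) and 114 lower (1.3%). After median-of-ratios scaling the calls with copper were 1895 higher and 1878 lower. Of 593 genes that were 2-fold to 4-fold higher without copper, 87 were at least 2-fold higher with copper (14.7%). Of 76 genes 4-fold to 8-fold higher, 35 were (46.1%), and of 29 genes at least 8-fold higher, 19 were (65.5%). All 3 shares lay above the 2.72% of all genes. A gene that starts from a larger difference passes a fixed limit of 2-fold more readily, so no order is read from them. Called higher with copper at any size were 65.8%, 80.3% and 75.9% of the classes, against 35.4% of all genes. The differences themselves were smaller with copper in every class: the median log2 difference went from 1.28 to 0.42, from 2.30 to 0.94 and from 3.45 to 1.46. By the interaction term of the same fit the genotype difference differed between the media in 45.8% of all genes. It was more positive with copper in 20.2% and more negative in 25.6%. In 587 of the 698 genes it was more negative with copper, a count that their choice favours and that can include genes whose direction turned. None of the 105 genes in the upper classes was called lower with copper, against 26 of the 593. Of the 100 most abundant genes without copper, 57 were called lower and 4 higher in ∆ArAceA with copper, with a median log2 difference of -0.15, and 88 and 2 after median-of-ratios scaling.

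**Figure D5:**
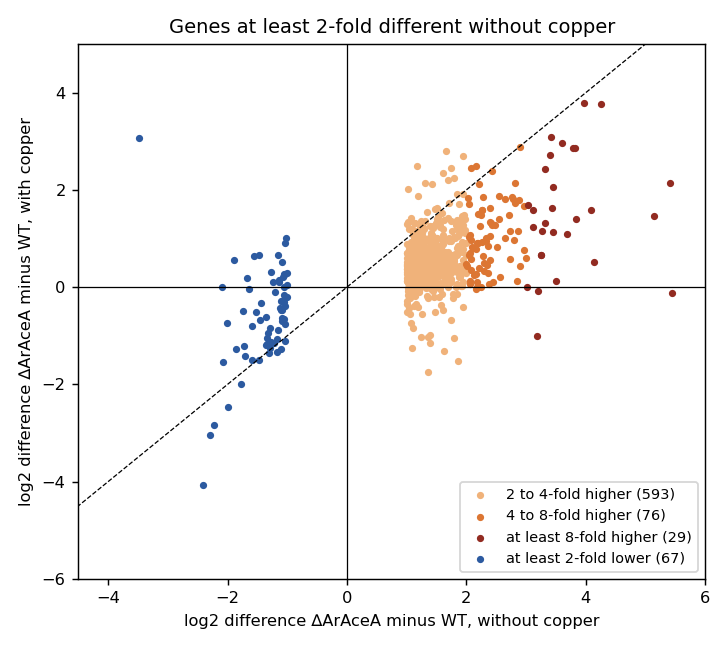
Each point is a gene at least 2-fold higher (orange to dark red, by size) or lower (blue) in ∆ArAceA without copper, with its log2 genotype difference without copper (horizontal) against that with copper (vertical); the dashed line marks equal differences. Of the 698 genes higher without copper, 596 lie between 0 and the dashed line, and M433DRAFT_131828 stands alone at upper left.

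The medians of the 4 groups are given as a description, since the genes were chosen for being high in ∆ArAceA without copper. For the 29 genes at least 8-fold higher, the median was 2.19 FPKM in WT and 3.52 FPKM in WT with copper, against 37.3 FPKM in ∆ArAceA and 17.8 FPKM in ∆ArAceA with copper. For the 593 genes at 2-fold to 4-fold, WT had medians of 5.18 FPKM in plain medium and 6.28 FPKM in copper, and ∆ArAceA had 14.6 FPKM and 8.37 FPKM. Set side by side, copper lowered 563 of the 698 genes in ∆ArAceA and raised 37, and in WT it raised 193 and lowered 43 (limma, adjusted p under 0.05). Over all genes tested copper lowered 31.5% and raised 24.7% in ∆ArAceA, and raised 10.6% and lowered 10.7% in WT. These copper comparisons use the libraries without copper that also chose the genes, so nothing is read from their medians or counts, and the order of rises and falls over all genes in ∆ArAceA turned after upper-quartile scaling.

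The 67 lowered genes divided in the copper medium. There 22 were at least 2-fold lower in ∆ArAceA, where 1.3% of all genes were. In all 42 were called lower and 10 higher, against 11.4% and 35.4% of all genes, and 15 were not called. In copper their medians were 25.8 FPKM for WT and 13.5 FPKM for ∆ArAceA, against 25.3 and 8.46 FPKM in plain medium. Copper raised 45 of them in ∆ArAceA and lowered 7, where 24.7% and 31.5% of all genes were. The choice of genes low in ∆ArAceA without copper favours such rises, and nothing is read from them.

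For many genes the fit also bounded the difference. Of the 3608 genes not called, 2891 (80.1%) had a 95% interval of the log2 change wholly within -0.5 to 0.5, and 3466 (96.1%) had one within -1 to 1. Over all 8741 genes the interval lay within 2-fold in 7333 (83.9%). Among the called genes 1844 had intervals inside -0.5 to 0.5, of which 911 were higher and 933 lower. The split of these small changes depends on the scaling described above, whose shift of the median gene is of the same size. For the remaining 142 genes that were not called, the interval reached beyond 2-fold.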

How the data were processed

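The members compared and the classes used were chosen with earlier results of these data known. The submitters' processing notes name HISAT2 2.1.0, RSEM 1.2.8 and DESeq2 as the authors' tools without saying what each did. A genome build or annotation is not given in the sources used here. RNA was extracted with TRIzol, per the labels' protocols. The authors deposited FPKM for each library, already scaled by transcript length and library size per the file headers, and all 12 library files equalled the series table. The authors' deposited log2 ratios and q-values were not used. All FPKM columns matched a sample (0 unmapped), and at most 0.324% of values of at least 10 FPKM were equal between any 2 libraries.

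A count test needs counts, so limma 3.58.1 in R 4.3.3 (mean-variance trend, robust) was run on log2(FPKM + 1), with all 4 groups in 1 fit that shares each gene's spread, for the 8741 genes that reached 1 FPKM in 3 or more of the 12 libraries. Tests were two-sided, p-values were adjusted by Benjamini-Hochberg over all genes tested, and an adjusted p under 0.05 was called. Fold classes use fitted log2 changes, which understate the change of low genes; folds beside FPKM are ratios of means. Library measures were compared by an exact permutation test. With no annotation, the rule for named genes took the 2 largest rises and 2 largest falls among calls without overlap whose higher group averaged 5 FPKM or more; others are given by rank or count. Nothing beyond the series text says how separate the cultures were, so p-values measure the spread between these samples. Tested on simulated data for ∆ArAceA against WT without copper over 8741 genes, the procedure recovered 99% of 100 genes changed 2-fold and 98% of 100 changed 4-fold, and called 10 of 8541 unchanged genes. Most genes were unchanged there, whereas 5133 of the 8741 genes (58.7%) were called in the libraries themselves. How the procedure performs with that many genes changed was not tested. The labels do not say that replicate numbers pair the samples, and the main fit did not pair them. Alternatives covered the pseudocount, the filter, the scaling, the groups fitted, a block, library weights and leaving out each library.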

Additional observations from a re-analysis of the deposited data

Results flagged for a closer look

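All 4 named genes had a genotype difference (∆ArAceA minus WT) that differed between the media by the interaction term of the limma fit. With minus without copper, the log2 difference changed by -5.57 for M433DRAFT_63521 (SE 0.14, adjusted p = 2.06e-11), whose genotypes were not called different with copper. It changed by -3.26 for M433DRAFT_60963 (SE 0.16, adjusted p = 2.63e-08), which stayed higher in ∆ArAceA. It changed by 6.55 for M433DRAFT_131828 (SE 0.39, adjusted p = 3.05e-07), whose direction turned. It changed by -1.67 for M433DRAFT_68484 (SE 0.27, adjusted p = 0.000309), which was lower in ∆ArAceA in both media. These genes were chosen by the difference without copper, which favours a change towards 0 with copper, so the interaction is a description for the first 3; M433DRAFT_68484 moved away from 0.

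Over all 8741 genes the genotype difference differed between the media in 4006 (45.8%), more positive with copper in 1770 (20.2%) and more negative in 2236 (25.6%). After upper-quartile scaling these were 2003 and 2106. Of the 698 genes at least 2-fold higher without copper, the difference was more negative with copper in 587 and more positive in 9. Of the 67 lower genes it was more positive in 42 and more negative in 3. These counts give the direction of the change, not the size of the difference. They include genes whose direction turned, such as M433DRAFT_131828.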

How the results depend on the processing

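Of 277 recomputed summary values 258 were counted as the same, by their side and, for counts of genes called, a size within 1.5 times. Among these the difference in genes listed at 0 kept its side but not its size. It was -106 over all genes and -24.7 among genes passing the filter. All 52 recomputed changes of the 4 named genes kept their direction and call. Among the settings of the same test, scaling moved the split of calls: genes called lower were 2763 after median-of-ratios and 2738 after upper-quartile scaling, against 1569. By level, lower calls became 676 and 664 at 5 to 20 FPKM, 1265 and 1252 at 20 to 100 FPKM, and 677 and 679 at 100 FPKM or more, where higher calls became 302 and 309; these settings set the median gene near 0. A pseudocount of 0.1, which weighs low genes more, gave 987 in place of 698 genes at least 2-fold higher without copper, and 83 in place of 67 lower. Of the 987 genes, 226 were at least 2-fold higher with copper too, in place of 141 of 698. By class, 67 of these 226 were 4-fold to 8-fold higher without copper. Of the 67 genes at least 8-fold higher by that setting, 40 were at least 2-fold higher with copper, in place of 19 of 29. Other minimum changes gave 1677 higher and 211 lower genes at 1.5-fold, 105 and 7 at 4-fold, and 318 and 21 by the test against 2-fold.

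Leaving out each of the 6 libraries gave 3263 to 3576 genes called higher, 1335 to 1556 lower, 686 to 712 at least 2-fold higher and 61 to 73 at least 2-fold lower. Between 652 and 665 of the 698 higher genes remained among them. With the replicate number as a block 3487 genes were called higher and 1498 lower. Same-numbered libraries of the strains did not deviate together (r of -0.09, -0.10 and -0.01 across genes). These coefficients cannot show how the cultures were set up, so a pairing of cultures by number was not excluded. No read depth was known, which limits what can be said of genes listed at 0.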
